A study of Homo sapiens with 12 samples.

Results

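The genes described here encode the human topoisomerases and the enzymes that clear them when they are stuck on DNA. The 9 genes were taken by name from the 60607 genes in the count table, each matched a single row, and all 9 passed the filter on low counts that left 17320 tested genes. They are TOP1, TOP2A, TOP2B, TOP3A, TOP3B and TOP1MT, which encode topoisomerases, and TDP1, TDP2 and SPRTN, which encode enzymes of adduct removal. RNA sequencing measured them in AC16, a wild-type human cell line derived from the fusion of adult ventricular heart cells with transformed fibroblasts. The 12 libraries fall into 4 groups of 3: controls kept in DMEM, and cells given 0.1 µM doxorubicin, an anthracycline, for 2, 4 or 6 days. The titles give these exposures as 48, 96 and 112 hours and all carry day 6. The labels therefore disagree on the longest exposure, and "day 6" below names that group. The groups are separate libraries with exposures of different length, and the labels do not establish a time course. Nothing in the labels ties the 3 libraries of a group to separate cultures, so the p-values reflect only how far these libraries differ, and that spread may be technical.

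Topoisomerases relieve the twisting that builds up when DNA is copied or transcribed. Type I enzymes cut a single strand and type II enzymes cut both strands, and each stays joined to the cut end through a tyrosine until the break is resealed. Doxorubicin stabilises the joined state of the type II enzymes TOP2A and TOP2B, which leaves protein-capped breaks. TOP2A is made mainly by dividing cells, whereas TOP2B is also made by cells that have stopped dividing, including adult heart muscle cells, where it is the form most discussed in anthracycline heart damage. Trapped protein is cut down by proteases such as SPRTN, and the remaining peptide is removed from DNA ends by the phosphodiesterases TDP1 and TDP2.

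The promoters of the genes for both type II enzymes are shown because the ratio of their RNA levels changed under the drug. These are the 250 bases before the RefSeq start on GRCh38.p14, read 5′ to 3′ on the minus strand, TOP2A at chr17:40417897-40418146 and TOP2B at chr3:25664908-25665157. Capitals mark the CCAAT box (CCAAT, or ATTGG on the other strand) and the cell cycle homology region, CHR (TTTGAA or CTTGAA, or TTCAAA or TTCAAG on the other strand), and no marked match overlaps another.
TOP2A: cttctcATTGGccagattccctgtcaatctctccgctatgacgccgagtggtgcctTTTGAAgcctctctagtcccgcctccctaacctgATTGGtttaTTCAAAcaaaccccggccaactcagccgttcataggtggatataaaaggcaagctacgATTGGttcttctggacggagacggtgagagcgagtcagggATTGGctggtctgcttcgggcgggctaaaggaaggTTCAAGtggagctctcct
TOP2B: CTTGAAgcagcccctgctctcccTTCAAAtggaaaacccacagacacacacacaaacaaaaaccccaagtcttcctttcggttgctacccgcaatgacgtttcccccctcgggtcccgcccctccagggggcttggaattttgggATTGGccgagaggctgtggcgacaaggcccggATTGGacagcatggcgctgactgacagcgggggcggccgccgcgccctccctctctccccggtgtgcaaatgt

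The TOP2A window held 4 CCAAT matches, beginning 244, 160, 93 and 53 bases before the start, and 3 CHR matches, beginning 194, 151 and 18 bases before it. The TOP2B window held 2 CCAAT matches, beginning 105 and 73 bases before the start, and 2 CHR matches that lie farther upstream, beginning 250 and 227 bases before it. Over the 35116 RefSeq windows of this length, 32.0% held at least 1 CCAAT match, 9.53% at least 2 and 2.93% at least 3. At least 1 CHR match was found in 20.9% of these windows, at least 2 in 3.83% and at least 3 in 0.632%. A second TOP2B start in the same table had neither motif in its window, and TOP1, TOP3A, TOP3B and TDP2 had neither, while TDP1 and SPRTN each had 1 CHR match. The window of TOP1MT is not reported here. In 19 windows of 17 genes from a list of 20 proliferation genes, 84.2% had a CCAAT match and 63.2% a CHR match. At least 3 CCAAT matches were found in 10.5% of these 19 windows, and at least 3 CHR matches in 0%. E2F site letters (TTTCCCGC, TTTCGCGC, TTTGGCGC or TTTGCCGC, on either strand) were also searched, and no member window given above held them. They were found in 2.79% of all windows and in 10.5% of the 19 windows from the list. These are letter matches in a fixed window and were not tested for binding.

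The libraries held 14835743 to 21226441 counts, and 5.51% to 8.34% of them came from mitochondrial genes. Control replicate 2 (8.26%) and day 2 replicate 3 (5.51%) lay apart from their groups in that share. Control replicate 2 also differed more from the other controls over all genes (chi-square per gene of 21.4 and 14.1) than these did from each other (4.11). Some results changed without these libraries, and examples are given below with both values. The cells are labelled cardiomyocytes, and the 15 cardiomyocyte markers summed to between 15.4 and 27.0 CPM in any library. Of these, TTN (a mean of 13.5 CPM) and GATA4 (6.56 CPM) held most, and the other 13 had means under 1 CPM. MYL2 had 0 counts in all 12 libraries, MYH7 had 0, 1, 4 and 3 counts over the control, day 2, day 4 and day 6 groups, and ACTN2 had 3, 51, 24 and 43. Of the 4 tested markers, 1, 1 and 2 were higher than the control at days 2, 4 and 6 and 0 were lower, ACTN2 at each exposure and TTN at day 6. The 14 fibroblast markers summed to 17829.5 to 18754.5 CPM in the controls, 28764 to 30131 at day 2, 25813 to 27640.0 at day 4 and 22962 to 23806 at day 6. FN1, with a mean of 13740 CPM, made up most of that sum, and over the list 11 genes were higher and 1 lower at day 2, 5 and 6 at day 4, and 4 and 7 at day 6. The 6 epithelial markers summed to 94.9 to 127.7 CPM in the controls, 254 to 279 at day 2, 87.2 to 114 at day 4 and 83.2 to 89.9 at day 6. Their part in the results was not tested. Directions are relative to TMM scaling, and with scaling by library totals alone the median of all genes moved to -0.136 on the log2 scale for day 2 against the control and to 0.162 for day 6 against day 2.

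Levels below are TMM-normalised CPM (counts scaled to a common library size), as mean ± SD with n = 3, and changes are log2 fold changes ± SE. A gene counts as higher or lower where its Benjamini-Hochberg adjusted p over all 17320 genes was under 0.05. Of the 9 genes 8 differed among the 4 groups, against 63.4% of all tested genes, and TOP3B did not pass (adjusted p = 0.0522). At day 2 against the control 2 of 9 were higher and 3 lower, 5 in all, where 47.2% of tested genes were called (23.8% higher and 23.4% lower). The libraries of 5 members did not overlap the controls, beside 52.2% of tested genes. At day 4, 1 was higher and 2 lower, where 36.5% of tested genes were called (18.8% higher and 17.7% lower), and 5 members did not overlap the controls, beside 44.6% of tested genes. At day 6, 0 were higher and 3 lower, where 43.7% were called (22% higher and 21.7% lower), and 4 did not overlap, beside 50.9%. The members' median log2 fold changes in these 3 comparisons were -0.13, -0.10 and -0.078, and those of all tested genes were -0.013, -0.0028 and -0.0061. Many genes were called in every comparison, and with 9 members these counts show nothing particular to them.

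**Figure D1:**
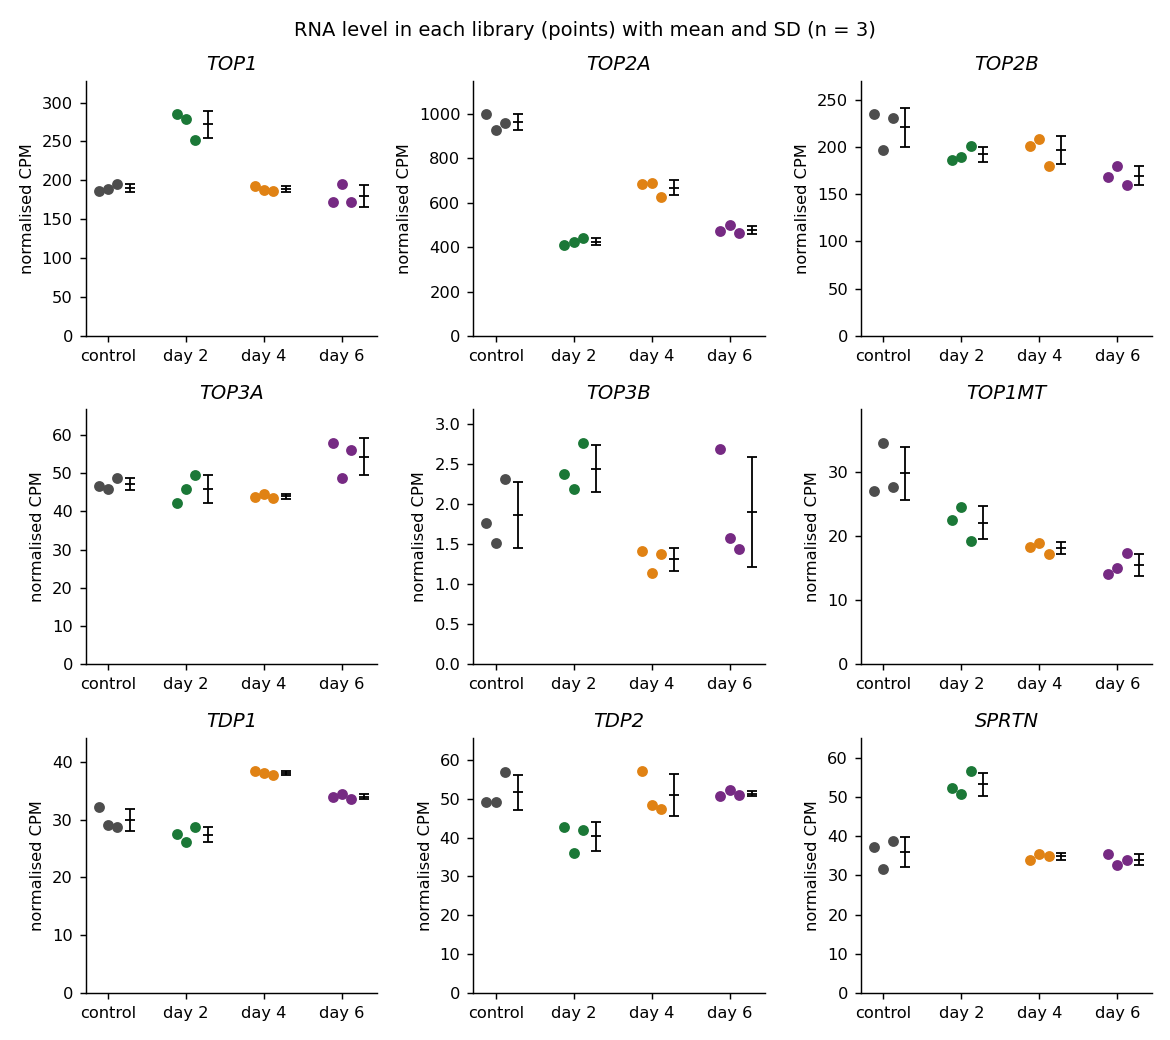
Normalised CPM of the 9 genes by group, with a linear axis from 0 for each gene. Points are the 12 libraries and the black bars the mean and SD of each group (n = 3). The TOP2A points of all 3 exposures lie below the controls, which sit between 926 and 997 CPM, and the TOP1 and SPRTN points are high at day 2 alone.

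The 3 exposures share the same controls, so their comparisons with the control are not independent of each other. TOP2A RNA was lower than in the control at all 3 exposures, most so at days 2 and 6. The gene (ENSG00000131747.15, chr17:40388516-40417950) had 997, 926 and 960.3 CPM in the 3 controls. At day 2 it had 411, 424 and 439 CPM, at day 4 685, 688 and 627, and at day 6 472, 497 and 462. The controls were the highest group, day 4 was intermediate, and no 2 groups overlapped. TOP2A was lower than in the control by 2.26-fold at day 2 (log2 fold change -1.18 ± 0.073, adjusted p = 1.65e-12), 1.44-fold at day 4 (-0.53 ± 0.072, adjusted p = 2.36e-06) and 2.01-fold at day 6 (-1.01 ± 0.072, adjusted p = 3.02e-11). In bulk RNA, fewer cells that express a gene and less RNA per cell cannot be told apart.

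The TOP2A level did not move in a single direction with the length of exposure. Day 4 was higher than day 2 by 0.65 ± 0.072 (adjusted p = 1.33e-07) and day 6 was lower than day 4 by 1.40-fold (log2 fold change -0.48 ± 0.072, adjusted p = 0.000153). For day 6 against day 2 the libraries did not overlap, but the difference of 0.17 ± 0.072 did not pass (adjusted p = 0.0644). That last comparison passed in 6 of the settings tried, among them DESeq2 (adjusted p = 0.0397) and scaling by library totals alone (log2 fold change 0.33, adjusted p = 0.000664).

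TOP2B, the type II enzyme that is not tied to division, was lower than in the control at day 6 and did not pass at days 2 and 4. Its RNA (ENSG00000077097.15, chr3:25597905-25664907) was at 234, 197 and 231 CPM in the controls and at 186, 189 and 201 CPM at day 2. It was at 201, 209 and 179.9 CPM at day 4 and at 168, 179.8 and 160.2 CPM at day 6. The day 2 and day 4 libraries overlapped the controls, and the day 6 libraries lay below them. TOP2B was 1.30-fold lower at day 6 (log2 fold change -0.38 ± 0.083, adjusted p = 0.000548). At day 2 the log2 fold change was -0.20 ± 0.082 (adjusted p = 0.0502, 95% interval -0.37 to -0.029) and at day 4 -0.17 ± 0.082 (adjusted p = 0.118, 95% interval -0.34 to 0.0026). Control replicate 2 was the lowest control, and without it both passed, at -0.28 (adjusted p = 0.00392) and -0.24 (adjusted p = 0.0156). Without both libraries that stood apart in mitochondrial share they were at -0.31 (adjusted p = 0.0029) and -0.24 (adjusted p = 0.011). The day 2 fall also passed with scaling by library totals alone, at -0.32 (adjusted p = 0.00208). Between exposures TOP2B did not pass. Day 6 was at -0.21 ± 0.083 against day 4 (adjusted p = 0.123) and -0.18 ± 0.083 against day 2 (adjusted p = 0.0774). Day 4 against day 2 was at 0.032 ± 0.082 (adjusted p = 0.809). Without control replicate 2, day 6 passed against day 4 (adjusted p = 0.0478) and against day 2 (adjusted p = 0.0407).

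The balance between the type II genes was followed as the log2 ratio of TOP2A to TOP2B within each library, which does not depend on library scaling. The ratio was 2.13 ± 0.094 in the controls, 1.14 ± 0.018 at day 2, 1.76 ± 0.040 at day 4 and 1.49 ± 0.030 at day 6 (SD, n = 3). No 2 groups overlapped, and the groups differed by an exact permutation test over all assignments of the 12 libraries to 4 groups (p = 6.49e-05, the smallest this test can give, adjusted over 4 ratios p = 0.00026). The fall against the control was 0.98, 0.36 and 0.63 on the log2 scale at days 2, 4 and 6. For any single pair of groups the smallest exact two-sided permutation p is 0.1, which all 6 pairs had. Per kilobase of exon, TOP2A made up 80.4% ± 1.02 of the summed type II RNA in the controls, 67.5% ± 0.267 at day 2, 76.1% ± 0.506 at day 4 and 72.6% ± 0.414 at day 6 (SD, n = 3), so TOP2A remained the more abundant of the pair in all 12 libraries.

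**Figure D2:**
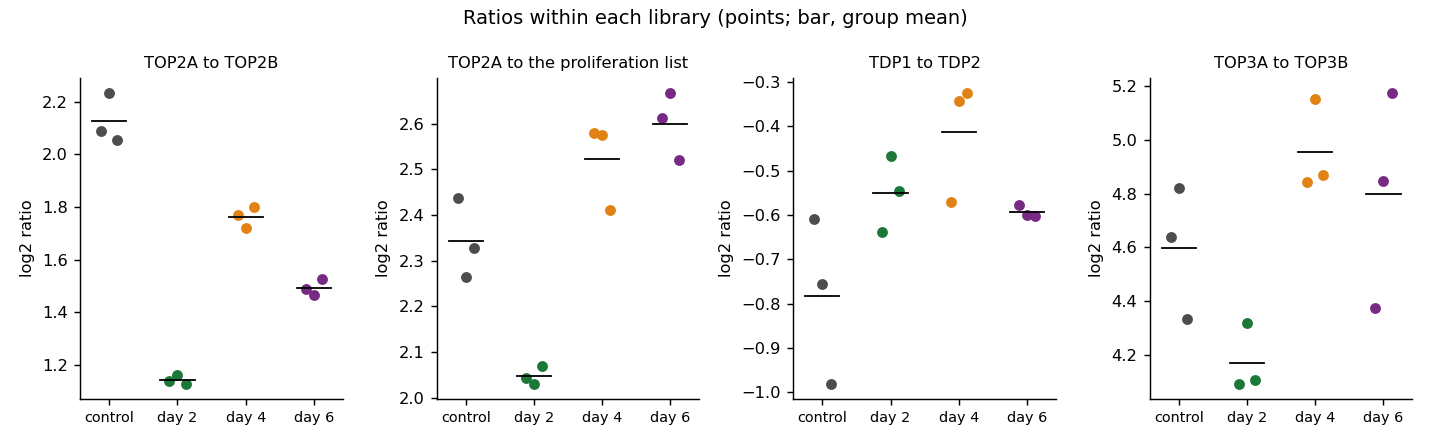
Log2 ratios within each library for 4 pairs, by group; points are libraries and bars are group means, and the axes do not start at 0. The ratio of TOP2A to TOP2B fell from 2.13 in the controls to 1.14 at day 2. The mean ratio of TOP2A to the proliferation list was lowest at day 2 and highest at day 6, where the libraries overlapped those of day 4.

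TOP2A was next set against 20 genes of mitosis and proliferation from a fixed list. Over all tested genes, 23.8%, 18.8% and 22% were higher and 23.4%, 17.7% and 21.7% lower than the control at days 2, 4 and 6, and the list counts here and below stand beside these shares. Of the 20 proliferation genes, 0 were higher and 20 lower at day 2, 0 and 19 at day 4 and 0 and 20 at day 6, with median log2 fold changes of -0.97, -0.69 and -1.20. The mitotic cyclin gene CCNB1 fell from 215 ± 17.4 to 90.1 ± 0.996 CPM at day 2 (adjusted p = 1.61e-12) and to 65.7 ± 3.00 at day 6 (adjusted p = 6.44e-15). CCNA2, the cyclin gene of S phase and G2, fell from 152 ± 5.34 to 62.9 ± 0.450 CPM at day 2 (adjusted p = 5.91e-13). KIF20A, a kinesin gene of cell division, fell from 159 ± 12.1 to 53.8 ± 0.541 CPM at day 4 (adjusted p = 4.38e-13) and to 29.9 ± 2.33 at day 6 (adjusted p = 1.65e-16). The proliferation marker MKI67 was at 1157 ± 48.2 CPM in the controls, 530.04 ± 48.4 at day 2, 601 ± 47.9 at day 4 and 405 ± 22.9 at day 6.

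The log2 ratio of TOP2A to the mean of this list was 2.34 ± 0.088 in the controls, 2.05 ± 0.020 at day 2, 2.52 ± 0.096 at day 4 and 2.60 ± 0.075 at day 6 (SD, n = 3), and the groups differed (exact permutation test, p = 0.000909, adjusted p = 0.00182). TOP2A thus stood lower against the list than in the controls at day 2, by 0.30, and higher at day 6, by 0.26, with no overlap of libraries in either case. For each of these pairs the exact two-sided permutation test gave p = 0.1, the smallest possible with 3 libraries a group. The day 6 and day 4 ratios overlapped and differed by 0.078 (exact two-sided permutation test, p = 0.4). Against MKI67 alone, a comparison added after the data were seen, the groups differed too (exact permutation test, p = 0.00344), with a day 6 ratio 0.50 above the controls. The day 2 ratio to MKI67 overlapped the controls and differed from them by -0.048, so the low day 2 position of TOP2A holds for the list mean and not for MKI67. For day 6 against day 4, 0 of the 20 proliferation genes were higher and 20 lower (median log2 fold change -0.54), beside -0.48 for TOP2A. Over all tested genes, 3.05% were higher and 3.73% lower in that comparison.

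TOP1, the nuclear type I enzyme that acts at transcribed genes and replication forks, was higher than in the control at day 2 and did not pass against it at days 4 and 6. The gene (ENSG00000198900.7, chr20:41028818-41124487) had 186, 189 and 196 CPM in the controls and 285, 279 and 252 CPM at day 2. It had 193, 188 and 186 CPM at day 4 and 172, 195 and 172 CPM at day 6. The 3 day 2 libraries lay above the other 9. TOP1 was 1.43-fold higher at day 2 than in the control (log2 fold change 0.51 ± 0.076, adjusted p = 4.27e-06) and lower at day 4 than at day 2 (-0.52 ± 0.076, adjusted p = 6.52e-06). At day 4 and day 6 its log2 fold changes against the control were -0.0085 ± 0.076 (adjusted p = 0.946) and -0.082 ± 0.076 (adjusted p = 0.405), with 95% intervals of -0.16 to 0.15 and -0.24 to 0.074.

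With TOP1 up and TOP2A down at day 2, the make-up of topoisomerase RNA shifted. Per kilobase of exon, TOP1 was 20.5% ± 0.835 of the summed RNA of the 6 topoisomerase genes in the controls and 40.1% ± 2.37 at day 2, 25.8% ± 0.881 at day 4 and 29.8% ± 0.963 at day 6 (SD, n = 3). TOP2A was 60.0% ± 0.750, 36.4% ± 1.39, 52.7% ± 0.428 and 45.9% ± 0.311 in the same order. Per kilobase TOP1 was above TOP2A in day 2 replicates 1 and 2. In day 2 replicate 3 the shares were 37.5% for TOP1 and 37.9% for TOP2A, and TOP1 was below TOP2A in the other 9 libraries too. The summed level was 249 ± 8.25 CPM per kilobase in the controls, 181 ± 1.49 at day 2, 197 ± 8.62 at day 4 and 161 ± 7.16 at day 6, and every treated library was below every control.

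**Figure D3:**
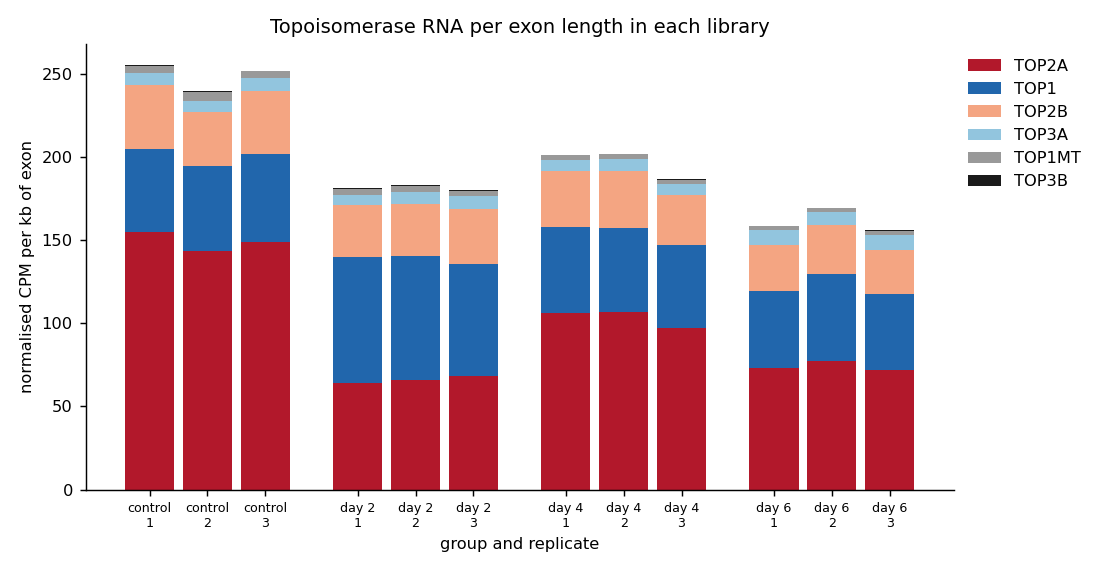
Stacked bars of normalised CPM per kilobase of exon for the 6 topoisomerase genes, 1 bar per library. Control bars reach 239.6 to 255 and day 6 bars 156 to 169, and the TOP1 and TOP2A segments are of similar height at day 2, with TOP1 the taller in replicates 1 and 2.

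In the controls the order of levels per kilobase was TOP2A (149 ± 5.58 CPM per kilobase), TOP1 (50.9 ± 1.33), TOP2B (36.5 ± 3.44), TDP2 (16.8 ± 1.45), TOP3A (7.27 ± 0.231), SPRTN (6.08 ± 0.647), TDP1 (4.81 ± 0.308), TOP1MT (4.63 ± 0.647) and TOP3B (0.280 ± 0.062). The TDP1 and TOP1MT values overlapped within their SD, and the other neighbours in this order were separated by more than their summed SDs. These levels use the union of annotated exons as length, so they depend on which transcripts a cell uses. The TOP3B counts may also be incomplete because of an overlapping gene, as given below, so its level may be too low. SPRTN shares 12.7% of its exon length with a gene on the opposite strand, so the SPRTN level may be too low as well.

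TOP1MT, the topoisomerase of mitochondrial DNA encoded on chromosome 8 (ENSG00000184428.13), was lower than in the control at all 3 exposures. It had 27.1, 34.6 and 27.7 CPM in the controls, 22.5, 24.6 and 19.3 at day 2, 18.4, 19.0 and 17.2 at day 4, and 14.1, 15.1 and 17.4 at day 6. Each treated group lay below the controls, and control replicate 2 was the highest library. TOP1MT was lower by 1.35-fold at day 2 (log2 fold change -0.43 ± 0.12, adjusted p = 0.00376), 1.64-fold at day 4 (-0.71 ± 0.12, adjusted p = 3.34e-05) and 1.91-fold at day 6 (-0.93 ± 0.12, adjusted p = 5.8e-07). Day 6 was also lower than day 2 (-0.51 ± 0.12, adjusted p = 0.00138), while day 4 against day 2 (-0.28 ± 0.12, adjusted p = 0.0687) and day 6 against day 4 (-0.22 ± 0.12, adjusted p = 0.298) did not pass. Day 4 against day 2 passed without control replicate 2 (-0.28, adjusted p = 0.0405). Without control replicate 2 and day 2 replicate 3, the libraries with the highest and lowest mitochondrial shares of their groups, the day 2 change was -0.22 and did not pass (adjusted p = 0.147).

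Other genes of mitochondrial DNA maintenance were mixed. Of 13 tested, 2 were higher and 4 lower at day 2, 1 and 4 at day 4, and 2 and 3 at day 6, with median log2 fold changes of -0.11, -0.21 and -0.097. POLG, the mitochondrial DNA polymerase gene, fell from 71.1 ± 5.198 to 44.0 ± 2.24 CPM at day 2 (adjusted p = 2.6e-07) and was at 48.9 ± 2.34 at day 6 (adjusted p = 1.08e-05). TWNK, the gene of the mitochondrial helicase, fell from 32.8 ± 3.49 to 21.8 ± 0.283 CPM at day 4 (adjusted p = 6.31e-05) and 21.5 ± 2.47 at day 6 (adjusted p = 3.18e-05). DNA2, a nuclease and helicase gene that serves both genomes, fell to 22.3 ± 0.579 from 43.5 ± 2.49 CPM at day 2 (adjusted p = 2.45e-08).

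TOP3A and TOP3B encode the type IA enzymes, which untangle joined single strands. TOP3A works with the BLM helicase on recombination intermediates and also in mitochondria. The gene (ENSG00000177302.15, chr17:18271428-18315007) had 46.5, 45.9 and 48.7 CPM in the controls, 42.2, 45.9 and 49.4 at day 2, 43.8, 44.5 and 43.4 at day 4, and 57.9, 48.7 and 55.9 at day 6. The day 6 libraries were the highest group, and day 6 replicate 2 reached into the range of the controls. TOP3A did not pass in any comparison with the control (log2 fold changes of -0.040 ± 0.089, -0.10 ± 0.089 and 0.20 ± 0.088, adjusted p = 0.739, 0.405 and 0.0643). With scaling by library totals alone the day 6 value was 0.24 and passed (adjusted p = 0.0319). Day 6 was higher than day 4 by 0.30 ± 0.088 (adjusted p = 0.0364) and higher than day 2 by 0.24 ± 0.088 (adjusted p = 0.0279). These calls are fragile. The first ended without any 1 of day 4 replicates 1, 2 and 3 (adjusted p = 0.119, 0.0699 and 0.103) or day 6 replicates 1 and 3 (0.179 and 0.115). The second ended without day 2 replicate 1 or 2 (adjusted p = 0.155 and 0.0634), day 6 replicate 1 or 3 (0.135 and 0.09), or the low-count filter (0.0781).

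TOP3B, which acts on RNA as well as DNA, was counted at the limit of use. The gene (ENSG00000100038.20, chr22:21957025-21982816) had 31, 23 and 35 counts in the controls, 47, 32 and 46 at day 2, 25, 19 and 25 at day 4, and 44, 29 and 31 at day 6. An antisense gene, AC245452.1, covers 90.7% of its annotated exon bases and had 1967 counts over the 12 libraries, beside 387 for TOP3B. Whether counting used strand is not stated, so reads of the pair may not have been told apart, and the TOP3B counts may be incomplete. Against the control TOP3B did not pass (log2 fold changes of 0.39 ± 0.27, -0.50 ± 0.29 and 0.011 ± 0.28, adjusted p = 0.24, 0.191 and 0.979), and the intervals allow changes of up to 1.93-fold, 2.15-fold and 1.497-fold. It was lower at day 4 than at day 2 (-0.89 ± 0.28, adjusted p = 0.0145), a call that ended without day 2 replicate 3 (adjusted p = 0.0595) or day 4 replicate 2 (0.0563). AC245452.1 had a log2 fold change of 0.11 ± 0.13 in that comparison (adjusted p = 0.552).

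The log2 ratio of TOP3A to TOP3B was 4.60 ± 0.248 in the controls, 4.17 ± 0.128 at day 2, 4.96 ± 0.171 at day 4 and 4.80 ± 0.403 at day 6 (SD, n = 3). The groups differed by the exact permutation test (p = 0.0305, adjusted p = 0.0305). That call ended without any 1 of the 3 day 2 libraries, without day 4 replicate 2 or 3, or without day 6 replicate 2, with adjusted p from 0.0534 to 0.106.

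SPRTN, the gene of the DNA-dependent protease that digests proteins crosslinked to DNA at replication forks, was high at day 2, as TOP1 was. The gene (ENSG00000010072.16, chr1:231337104-231355023) had 37.3, 31.6 and 38.8 CPM in the controls and 52.4, 50.9 and 56.6 CPM at day 2. It had 34.0, 35.5 and 35.1 CPM at day 4 and 35.5, 32.8 and 33.9 CPM at day 6. The day 2 libraries lay above the other 9. SPRTN was 1.48-fold higher at day 2 (log2 fold change 0.57 ± 0.091, adjusted p = 1.29e-05) and lower at day 4 than at day 2 (-0.61 ± 0.091, adjusted p = 8.68e-06). Against the control it was at -0.043 ± 0.092 at day 4 (adjusted p = 0.757) and -0.078 ± 0.092 at day 6 (adjusted p = 0.522), with 95% intervals of -0.23 to 0.15 and -0.27 to 0.11. The SPRTN annotation shares 749 exon bases, 12.7% of its exon length, with EXOC8 on the opposite strand, a gene of the exocyst complex named here for that overlap. EXOC8 was at 31.9 ± 3.69 CPM in the controls and 36.9 ± 3.76 at day 2 (log2 fold change 0.21 ± 0.10, adjusted p = 0.101). Across the 12 libraries the log2 CPM of SPRTN and TOP1 had a Pearson correlation of 0.903, a description only, since the libraries share the group structure and scaling.

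Against the control, the phosphodiesterase genes passed at different exposures, TDP2 lower at day 2 and TDP1 higher at day 4. TDP1 removes topoisomerase I remnants from 3′ ends and TDP2 removes topoisomerase II remnants from 5′ ends. TDP2 (ENSG00000111802.14, chr6:24649977-24667033) had 49.2, 49.1 and 56.9 CPM in the controls, 42.8, 36.1 and 42.0 at day 2, 57.1, 48.4 and 47.3 at day 4, and 50.8, 52.2 and 51.1 at day 6. Its day 2 libraries lay below the other 9. TDP2 was 1.28-fold lower at day 2 (log2 fold change -0.36 ± 0.096, adjusted p = 0.00347) and at -0.021 ± 0.095 and -0.0093 ± 0.094 against the control at days 4 and 6 (adjusted p = 0.89 and 0.948), with 95% intervals of -0.22 to 0.17 and -0.20 to 0.19. It was higher at day 4 than at day 2 by 0.34 ± 0.095 (adjusted p = 0.00771), a call that ended without day 2 replicate 2 (adjusted p = 0.0684) or day 4 replicate 1 (0.0795). Day 6 was above day 2 by 0.35 ± 0.095 (adjusted p = 0.00472).

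TDP1 (ENSG00000042088.14, chr14:89954939-90044768) had 32.2, 29.02 and 28.7 CPM in the controls, 27.5, 26.1 and 28.8 at day 2, 38.4, 38.2 and 37.8 at day 4, and 34.0, 34.4 and 33.6 at day 6. Day 4 was the highest group and overlapped no other, and the day 6 libraries also lay above the controls. TDP1 was 1.27-fold higher at day 4 than in the control (log2 fold change 0.34 ± 0.087, adjusted p = 0.00304), with -0.13 ± 0.089 at day 2 (adjusted p = 0.248) and 0.18 ± 0.088 at day 6 (adjusted p = 0.101). With scaling by library totals alone the day 2 value was -0.25 and passed (adjusted p = 0.0222). Against day 2, TDP1 was higher by 0.47 ± 0.088 at day 4 (adjusted p = 0.000147) and by 0.31 ± 0.088 at day 6 (adjusted p = 0.00632). Day 6 against day 4 did not pass (-0.16 ± 0.086, adjusted p = 0.278), so a change particular to day 4 is not shown. The log2 ratio of TDP1 to TDP2 was -0.78 ± 0.188 in the controls, -0.55 ± 0.086 at day 2, -0.41 ± 0.138 at day 4 and -0.59 ± 0.013 at day 6 (SD, n = 3), and the groups differed (exact permutation test, p = 0.0131, adjusted p = 0.0175). That difference ended without control replicate 3 (adjusted p = 0.0588), day 4 replicate 2 (0.0635) or day 4 replicate 3 (0.0534).

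**Figure D4:**
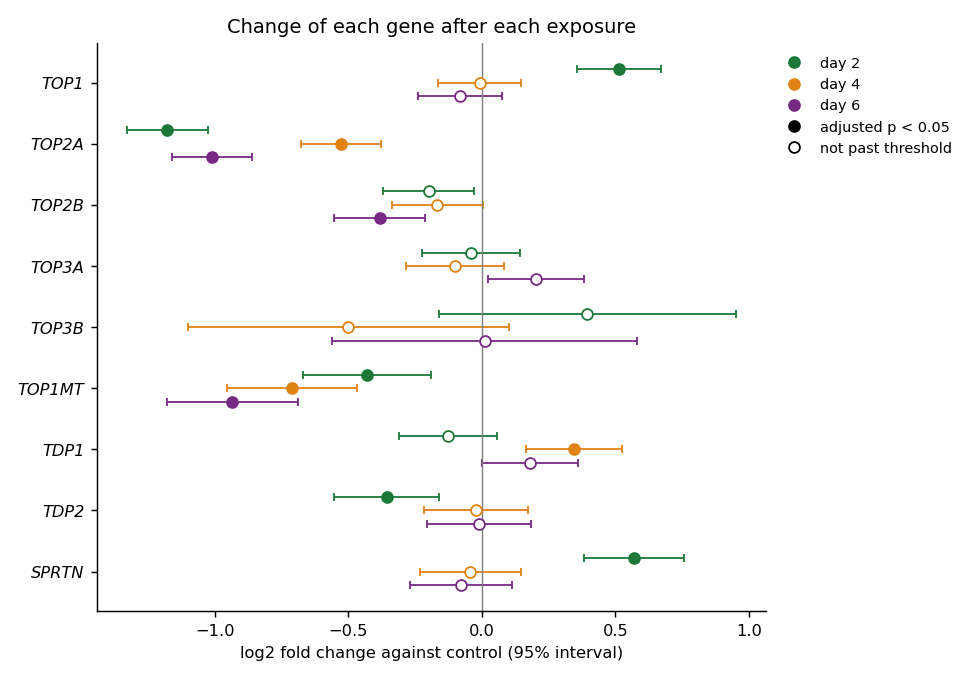
Log2 fold change of each gene against the control with its 95% interval, for day 2, day 4 and day 6; filled points passed the threshold and open points did not. TOP2A and TOP1MT are filled and left of 0 at all 3 exposures, TOP1 and SPRTN are filled and right of 0 at day 2 alone, and TDP1 is filled at day 4 alone.

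Between exposures, 6 of the 9 genes were called for day 4 against day 2 (3 higher and 3 lower, where 34.8% of tested genes were called, 16.3% higher and 18.5% lower). Without overlap were 7, beside 45.9% of tested genes (22.2% higher and 23.7% lower). For day 6 against day 2, 6 were called (3 higher and 3 lower, where 42.8% were called, 19.8% higher and 23% lower), and 7 did not overlap, beside 52.8%. For day 6 against day 4, 2 were called, TOP2A and TOP3A, where 6.78% of tested genes were called (3.05% higher and 3.73% lower), and 5 did not overlap, beside 27.6%. TOP2A was the 1 call of that pair that held without each library in turn.

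Genes that work with the topoisomerases were followed as fixed lists. Over all tested genes, 23.8%, 18.8% and 22% were higher and 23.4%, 17.7% and 21.7% lower than the control at days 2, 4 and 6. Beside these shares, several lists were called lower more often, among them the partners and the non-homologous end joining genes at day 2. At day 6 the factors that handle crosslinked proteins were too, while some other counts lay near the shares. Of the partners and relatives, 12 of 15 were tested, with 0 higher and 9 lower at day 2, 0 and 4 at day 4 and 1 and 4 at day 6 (median log2 fold changes of -0.48, -0.12 and 0.019). BLM, the helicase that works with TOP3A, fell from 66.5 ± 5.49 to 37.9 ± 2.06 CPM at day 2 (adjusted p = 7.69e-08). PIF1, a DNA helicase gene, fell from 11.7 ± 1.12 to 5.85 ± 0.567 CPM at day 2 (adjusted p = 5.79e-06) and to 3.22 ± 0.637 at day 6 (adjusted p = 9.08e-10). FMR1 and FXR1, RNA-binding protein genes whose products associate with the partner of TOP3B, were lower at day 6 by 0.41 ± 0.087 (adjusted p = 0.000491) and 0.52 ± 0.071 (adjusted p = 1.71e-06), and FMR1 at day 4 by 0.40 ± 0.087 (adjusted p = 0.000793).

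Nucleases and other enzymes that open or trim blocked DNA ends were mixed. Of 12 tested of 13, 2 were higher and 5 lower at day 2, 1 and 4 at day 4, and 5 and 3 at day 6 (median log2 fold changes of -0.26, 0.079 and 0.050). RBBP8, which encodes CtIP, the cofactor of the MRE11 nuclease, fell from 159 ± 0.470 to 89.4 ± 1.98 CPM at day 2 (adjusted p = 6.33e-10) and 116 ± 2.13 at day 4 (adjusted p = 1.36e-05). APTX, which is not a nuclease but clears AMP left on DNA ends by failed ligation, rose from 49.1 ± 3.88 to 89.3 ± 2.78 CPM at day 2 (adjusted p = 3.71e-09) and was at 69.0 ± 1.27 at day 6 (adjusted p = 2.66e-05). SLX4, the scaffold gene of structure-specific nucleases, fell from 43.4 ± 1.72 to 25.7 ± 4.22 CPM at day 4 (adjusted p = 2.64e-05) and 25.9 ± 3.39 at day 6 (adjusted p = 2.29e-05).

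The list of ubiquitin, SUMO and protease factors that handle proteins crosslinked to DNA had all 25 genes tested. There 4 were higher and 7 lower at day 2, 5 and 7 at day 4, and 4 and 12 at day 6 (median log2 fold changes of -0.021, -0.12 and -0.19). At day 2 FAF1, a cofactor gene of the p97 ATPase, fell by 0.77 ± 0.077 (adjusted p = 1.04e-08), and FAM111A, a protease gene, by 0.67 ± 0.087 (adjusted p = 6.8e-07). At day 4 VCP, which encodes p97 itself, rose from 393 ± 23.99 to 529 ± 25.5 CPM (adjusted p = 0.000282), and its cofactor gene UFD1 from 77.8 ± 6.25 to 113 ± 9.63 CPM (adjusted p = 2.16e-05). At day 6 SUMO3, a modifier gene, fell from 119 ± 9.83 to 84.5 ± 7.14 CPM (adjusted p = 4.15e-05), and PCNA, the replication clamp gene and a known p53 target, rose from 342 ± 13.7 to 475 ± 33.3 CPM (adjusted p = 4.58e-05).

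Break repair genes downstream of adduct removal were mixed for single-strand breaks and mostly lower, where called, for non-homologous end joining. In single-strand break repair all 8 were tested, with 1 higher and 3 lower at day 2, 1 and 3 at day 4, and 2 and 4 at day 6 (median log2 fold changes of -0.23, -0.084 and -0.23). PARP1, the main sensor of such breaks, fell from 290.5 ± 20.2 to 159 ± 4.36 CPM at day 2 (adjusted p = 8.08e-10), 198 ± 8.90 at day 4 (adjusted p = 1.98e-06) and 166 ± 6.73 at day 6 (adjusted p = 3.06e-09). PARP2, its relative, fell from 69.9 ± 5.67 to 26.9 ± 3.06 CPM at day 2 (adjusted p = 1.96e-11). APLF, an end-repair factor gene named after its values were seen, was higher at day 6, at 10.8 ± 0.577 CPM against 4.93 ± 0.179 in the control (adjusted p = 1.61e-06). In non-homologous end joining, which seals breaks with both strands cut, 0 of 11 were higher and 6 lower at day 2, 0 and 3 at day 4, and 1 and 3 at day 6 (median log2 fold changes of -0.29, -0.21 and -0.071). XRCC5, which encodes Ku80, fell from 624 ± 18.8 to 455 ± 26.02 CPM at day 2 (adjusted p = 1.06e-05), TP53BP1, the gene of a break-binding protein, from 156 ± 19.6 to 107.5 ± 11.8 CPM (adjusted p = 6.03e-05), and NHEJ1 to 4.42 ± 0.062 from 8.07 ± 0.981 CPM at day 6 (adjusted p = 7.54e-05).

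Genes that shape chromosomes together with type II topoisomerases were mostly lower, as TOP2A was. Of the 16 condensin, cohesin and loop anchor genes, 0 were higher and 14 lower at day 2, 0 and 14 at day 4, and 0 and 13 at day 6 (median log2 fold changes of -0.72, -0.46 and -0.49). The cohesin genes SMC3 and RAD21 fell at day 2 from 319.7 ± 10.6 to 155 ± 11.6 CPM (adjusted p = 2.34e-11) and from 578 ± 49.4 to 293 ± 15.6 CPM (adjusted p = 2.93e-10). The condensin gene NCAPD2 fell from 475 ± 23.3 to 239 ± 8.23 CPM at day 4 (adjusted p = 2.48e-10) and 187 ± 10.9 at day 6 (adjusted p = 6.34e-13), and SMC4 from 487 ± 39.9 to 229 ± 11.9 CPM at day 6 (adjusted p = 1.94e-11).

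Of 20 regulators of cell-cycle genes, 2 were higher and 12 lower at day 2, 2 and 12 at day 4, and 2 and 11 at day 6 (median log2 fold changes of -0.49, -0.30 and -0.24). E2F7, a repressor of the E2F family, rose from 109.6 ± 18.5 to 292 ± 34.9 CPM at day 2 (adjusted p = 3.54e-10). FOXM1, an activator of G2 and M phase genes, fell from 282 ± 21.6 to 146 ± 3.42 CPM at day 2 (adjusted p = 3.95e-10), 177 ± 10.6 at day 4 (adjusted p = 1.97e-07) and 136 ± 8.58 at day 6 (adjusted p = 6.7e-11). MYBL2, which encodes B-MYB, fell from 245 ± 38.6 to 149 ± 12.99 CPM at day 4 (adjusted p = 1.67e-06) and 119 ± 8.69 at day 6 (adjusted p = 3.1e-09).

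**Figure D5:**
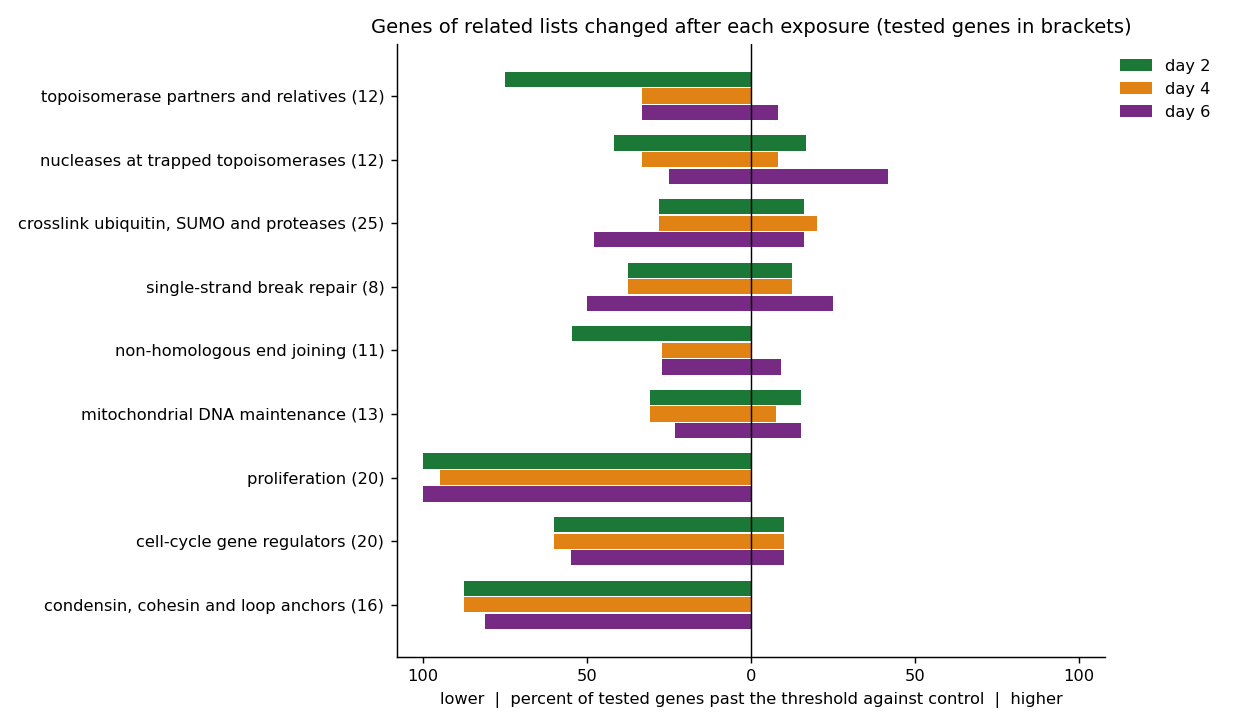
Percent of tested genes of each related list that were lower (left) or higher (right) than the control at adjusted p under 0.05, for day 2, day 4 and day 6, with the number tested in brackets. The proliferation and the condensin, cohesin and loop anchor lists have bars to the left only, and the list of nucleases is the only 1 with more genes higher than lower, at day 6.

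The genes whose patterns were most like each member over the 12 libraries were found by the Pearson correlation r of log2 CPM among 9340 genes with a symbol and a mean of at least 10 CPM. The libraries share groups and scaling, so r is a description. TOP2A was closest to DEPDC1 (r = 0.988), LRP8 (0.984), BUB1 (0.984), DSTYK (0.983) and KNSTRN (0.978), of which DEPDC1, BUB1 and KNSTRN are known for roles in mitosis. TOP1 was closest to NIFK (r = 0.98), TAF3 (0.971) and CALD1 (0.968), and SPRTN to DIXDC1 (0.987) and CHST15 (0.979). TOP1MT was closest to HOXB9 (r = 0.982), IGF2BP2 (0.971) and PKP4 (0.969), and TOP2B to TLK1 (0.972), FUBP1 (0.969) and ANKRD28 (0.961). For TDP1 the closest were HDGFL3 (r = 0.969), EXTL3 (0.963) and NIPSNAP3A (0.962), for TDP2 ABHD3 (0.944), PBK (0.926) and MZT1 (0.924), and for TOP3A NLRC5 (0.868), TMEM209 (0.824) and PAMR1 (0.816). TOP3A thus had the weakest likeness of the 8 genes that differed among the groups, while no member was among the closest genes of another.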

How the data were processed

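The authors deposited 1 table of raw read counts, with 60607 Ensembl gene IDs in rows and the 12 libraries in columns, not normalised. The submitters' processing notes name fastp 0.23.2, Trimmomatic 0.38, STAR 2.7.8, HTSeq 0.13.5 and GRCh38.p13, without roles; neither strand use nor the annotation release is stated. Symbols matched 42023 IDs. Positions and exon lengths are from GENCODE release 29 (GRCh38), and promoters from RefSeq on GRCh38.p14.

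Counts were tested with edgeR 4.0.16 (R 4.3.3): filterByExpr with the 4 groups (minimum count 10, minimum total 15) left 17320 genes, libraries were scaled by TMM, and all 12 were fitted with a mean per group by glmQLFit with robust settings (8 residual degrees of freedom) and glmQLFTest. Adjusted p-values are Benjamini-Hochberg over all 17320 genes. The SE is the absolute log2 fold change divided by the square root of F. Log2 CPM for ratios and correlations used a prior count of 2. The procedure was tested on simulated data, and no replicate pair agreed within sampling noise.

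The members and lists were chosen with earlier results of these data known. All members are named. From each list up to 2 called genes with the smallest p per comparison with the control could be named, plus MKI67, and for each member the 3 closest genes (5 for TOP2A). Of these, part were printed, and 1 of the genes closest to SPRTN is not reported here. EXOC8 and AC245452.1 were named for their overlap. Alternatives were other size factors, library totals, other filters, DESeq2 1.42.0, the replicate block, fits of only the compared groups and fits without each library in turn. The fit without 2 libraries and the ratio to MKI67 were added after the data were seen.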

Additional observations from a re-analysis of the deposited data

Results flagged for a closer look

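For these genes the effect against the control differed between exposures, by the direct edgeR test between the exposures (n = 3 libraries a group). For day 4 against day 2 the log2 difference was -0.52 for TOP1, 0.65 for TOP2A, -0.89 for TOP3B, 0.47 for TDP1, 0.34 for TDP2 and -0.61 for SPRTN. For day 6 against day 4 it was -0.48 for TOP2A and 0.30 for TOP3A. For day 6 against day 2 it was -0.60 for TOP1, 0.24 for TOP3A, -0.51 for TOP1MT, 0.31 for TDP1, 0.35 for TDP2 and -0.65 for SPRTN. The values for TOP3B and TOP3A, and the day 4 against day 2 value for TDP2, lose their call without single libraries, as given above.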

How the results depend on the processing

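The counts of members called stayed within 1.5 times the main count in 133 alternatives and left that range in 6, all for day 6 against day 4, where 2 genes became 1 (TOP2A) with the replicate block (TOP3A at 0.30, adjusted p = 0.0554) and the count ranged from 1 to 3 without each library in turn. Among single fold changes 1016 kept direction and call, 16 lost and 24 gained a call, and 24 changed sign. None of the values that changed sign was called in either setting. With library totals alone they were 0.027 for TDP2 at day 6 against the control, 0.026 for TOP3A at day 4 against day 2 and 0.038 for SPRTN at day 6 against day 4. TDP2 at day 6 against the control was 0.00091 without the low-count filter and 0.0097 with the compared groups alone, and TOP3B there was -0.12 without the 2 libraries apart in mitochondrial share. Without each library in turn, the values against the control ranged from -0.049 to 0.061 for TDP2 and -0.30 to 0.19 for TOP3B at day 6, from -0.11 to 0.051 for TDP2, -0.026 to 0.011 for TOP1 and -0.13 to 0.014 for SPRTN at day 4, and from -0.096 to 0.031 for TOP3A at day 2. TOP2B at day 4 against day 2 ranged from -0.021 to 0.097 and TDP2 at day 6 against day 4 from -0.040 to 0.10. Why single values moved was not tested.

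Adjusted p of the ratio tests ranged without each library from 0.00143 to 0.00416 for TOP2A to the proliferation list, 0.0104 to 0.106 for TOP3A to TOP3B and 0.00424 to 0.0635 for TDP1 to TDP2, and it was 0.00026 throughout for TOP2A to TOP2B. Same-numbered replicates of different groups did not vary together (18 pairs, correlations from -0.171 to 0.0963), and 2 of 12 libraries were closest to their own number, so the numbers are not taken as pairs. Counts of 19 to 47 limit TOP3B. Over all genes, library totals alone gave 3203 higher and 5386 lower at day 2 against the control (4122 and 4058 with TMM), 3842 and 2443 at day 4 against day 2 (2828 and 3203), 1006 and 350 at day 6 against day 4 (528 and 646) and 5265 and 2538 at day 6 against day 2 (3437 and 3977). The 1174 genes called for day 6 against day 4 became 1837 with only these groups fitted, 2027 without the 2 libraries apart in mitochondrial share, and 572 to 1842 without each library in turn. Of the list counts 97 moved by over 1.5 times and 983 did not.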
